A study of Mus musculus with 47 samples.

Results

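The comparison described here set 3 libraries of mice labelled for Kir2.1 against 3 wild-type libraries, all from olfactory epithelium at postnatal day 3 (P3), over every gene that could be tested. The 6 libraries were chosen by their titles, out of 47 libraries in 14 groups (2 genotypes at 7 ages). The Kir2.1 mice (Kir) carried the strain label OIVT;Kir2.1 and the wild-type mice (WT) the strain label C57BL/6J. The labels do not spell out OIVT or what drives Kir2.1, and they do not tie libraries to single animals. Strain background and transgene thus cannot be told apart. P-values set the difference between groups only against how far libraries of a group differ, and part of that may be technical. In the main test this spread was estimated over all 47 libraries, not over the 6 alone. Whole olfactory epithelium was dissected, and polyadenylated RNA was counted per gene.

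The olfactory epithelium holds sensory neurons that are replaced from basal stem cells throughout life. Each mature neuron expresses a single odorant receptor gene, and odorant binding acts through a G protein, adenylyl cyclase and a cyclic-nucleotide-gated channel. Kir2.1 is an inwardly rectifying potassium channel, the product of Kcnj2, whose overexpression holds a neuron near its resting potential and is widely used to silence neurons. In olfactory sensory neurons, some surface and calcium-binding proteins, among them Kirrel2, Sema7a and S100a5, are known to depend on neuronal activity.

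Gene counts at P3 ran from 9733616 to 14888005 per library. The tissue label held in all 6 libraries, with Omp (mature sensory neurons) at 340.5 to 799 CPM (gene counts scaled by library size) and Cyp2g1 (sustentacular cells) at 1196 to 1962 CPM. 3 libraries stood apart. Kir replicate 3 had the lowest Kcnj2 of the Kir libraries. WT replicate 1 had 6.14 CPM of the gland gene Bpifb9b, against 16888 to 43062 CPM in the 3 Kir libraries and 19736 and 26787 CPM in the other WT libraries, and a summed skeletal muscle list of 109 CPM against 8.08 to 9.97 CPM elsewhere. WT replicate 2 alone expressed Y-linked genes (Ddx3y at 45.6 CPM, against 0 in the other 5) and had Xist at 0.176 CPM, against 439 to 888 CPM in the others, so sex-linked genes were not balanced between the groups. The part of these differences in the results was not tested, and counts of calls with each library left out are given below.

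Kcnj2 (chromosome 11, 111066164 to 111076821, plus strand) checks the labels. Kcnj2 had 959, 644 and 132 CPM in Kir libraries 1 to 3, against 45.0, 45.3 and 48.8 CPM in the WT libraries. All Kir libraries lay above all WT libraries, and Kir replicate 3 lay between the other Kir libraries and WT. The log2 fold change was 3.64 ± 0.54 (standard error, edgeR adjusted p = 0.000949), and 4.09 ± 0.50 without Kir replicate 3. Of 12 tested genes of the inward rectifier family, Kcnj2 alone was called. Kcnj1, next by p-value, stood at 7.11, 12.6 and 12.5 CPM in Kir and 5.95, 7.50 and 7.38 CPM in WT (adjusted p = 0.356).

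**Figure D1:**
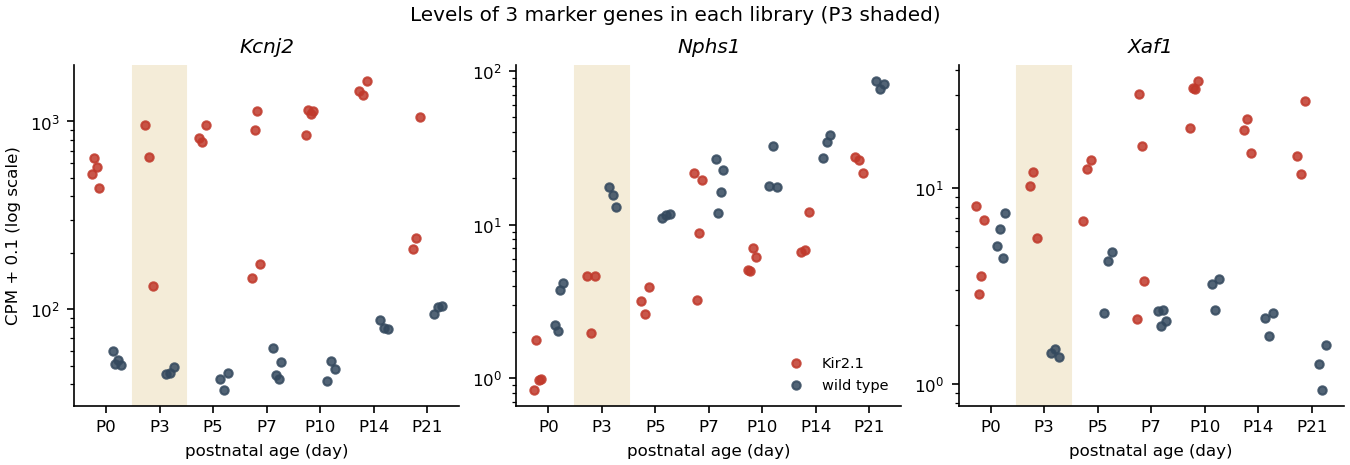
Levels of Kcnj2, Nphs1 and Xaf1 (CPM + 0.1, log axis) in each library at each age, Kir2.1 in red left of wild type in dark blue, with P3 shaded; each point is a library. At P3 the Kir libraries lay above WT for Kcnj2 (132 to 959 against 45.0 to 48.8 CPM) and Xaf1 (5.42 to 11.9 against 1.26 to 1.41 CPM) and below WT for Nphs1 (1.85 to 4.55 against 12.9 to 17.4 CPM).

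Of 19927 genes tested, 35 were higher in Kir (0.176%) and 105 lower (0.527%) at an adjusted p below 0.05. At least 2-fold changes made up 31 of the higher and 75 of the lower calls. The lower calls included 57 odorant receptor genes, and the higher calls included 8 genes of a list of interferon-stimulated genes. The median log2 fold change of all tested genes was 0.03. All Kir libraries lay below all WT libraries for 105 of the 105 lower calls and above them for 32 of the 35 higher calls. These genes were chosen by a test of the same libraries. Over all 19927 tested genes, the Kir libraries lay below all WT libraries for 2103 and above them for 2008.

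The number of calls depended strongly on single libraries. It was 85 without Kir replicate 1, 12 without Kir replicate 2, 171 without Kir replicate 3 (48 higher, 0.236%, and 123 lower, 0.605%), 11 without WT replicate 1, 130 without WT replicate 2 and 42 without WT replicate 3. All 140 called genes kept their sign in each of these fits. Groups that do not overlap, as in most of these genes, keep their order without any 1 library, so this adds no support. In 10 genes the call also held in every one of them: Kcnj2 and Ctss, which were higher, and Nphs1, Kcnmb3, Sema7a, 2210011C24Rik, OR5BS1P, Olfr1012, Olfr128 and Olfr297, which were lower. Same-numbered Kir and WT libraries deviated together from their group means. The labels do not say what the number marks, so this pairing was taken from the same values. P-values with the block, here and below, are thus an alternative and not independent support. With the replicate number as a block, in the 6 P3 libraries alone, 573 of 17097 genes were called, 277 higher (1.62%) and 296 lower (1.73%). These included 26 of the 30 higher calls and 89 of the 102 lower calls that this fit also tested. The same 6 libraries without the block gave 57 calls, 34 higher and 23 lower, so the excess of lower calls was not seen in that fit.

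**Figure D2:**
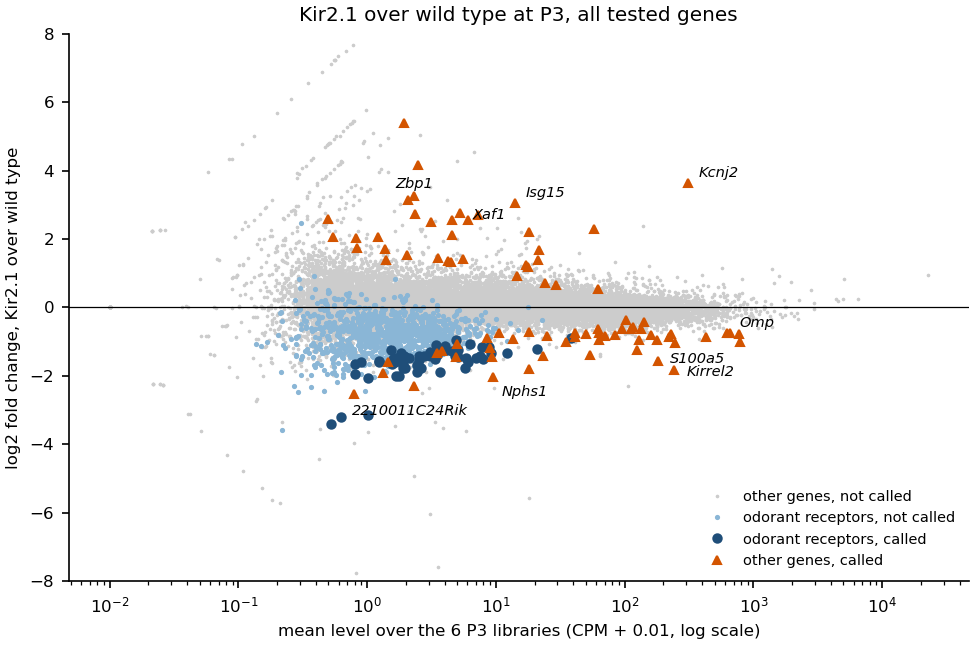
Log2 fold change of Kir2.1 over wild type at P3 (vertical axis) against the mean level over the 6 libraries (CPM + 0.01, log axis), with a point per tested gene; 5 genes beyond ±8 are not drawn. Odorant receptors (blue) lie mostly below 0, where 57 of them were called, and Kcnj2 stands alone among the called higher genes above 100 CPM.

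Several genes that neuronal activity is known to regulate in sensory neurons were lower in Kir. In a list of 16 tested genes of this kind 5 fell, against 0.527% of all tested genes called lower. In the list 0 rose, 11 were not called and the median log2 fold change was -0.53. It was negative in 14 and positive in 2. This list and those below were chosen with earlier results of these data known, so their counts are not independent support. The 5 were Nphs1, Kirrel2, S100a5, Kcnmb3 and Sema7a. With the replicate block 8 of the list fell, against 1.73% of all genes tested with the block. With 1 library left out 3 to 6 of the list fell, 3 without Kir replicate 2 and 3 without WT replicate 1.

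Nphs1 (chromosome 7, 30458315 to 30487223, plus strand) encodes nephrin, an immunoglobulin-family adhesion protein best known from the kidney filtration slit. Nphs1 had 4.53, 1.85 and 4.55 CPM in Kir, against 17.4, 15.5 and 12.9 CPM in WT. No Kir library reached the lowest WT library. The log2 fold change was -2.04 ± 0.34 (edgeR adjusted p = 0.00178).

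Kirrel2 (chromosome 7, 30447534 to 30457690, minus strand) encodes a nephrin-related homophilic adhesion protein that sorts sensory axons into glomeruli. Its gene lies head to head with Nphs1, with 624 bases between their GENCODE starts, while the RefSeq start of Nphs1 lies further away. Kirrel2 had 87.7, 58.9 and 171 CPM in Kir, against 388, 327 and 419 CPM in WT. The Kir libraries lay below WT, Kir replicate 3 nearest to it. The log2 fold change was -1.83 ± 0.36 (edgeR adjusted p = 0.00975). Without Kir replicate 2 and without WT replicate 1 neither Kirrel2 nor S100a5 was called. Kirrel3, its paralog, known to be expressed in a pattern complementary to Kirrel2, had 38.1, 23.9 and 31.8 CPM in Kir and 35.7, 35.1 and 37.7 CPM in WT (adjusted p = 0.65).

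S100a5, an EF-hand calcium-binding protein of mature sensory neurons (chromosome 3, 90608523 to 90611780), had 71.1, 53.8 and 148 CPM in Kir, against 301, 245 and 265 CPM in WT. Every Kir library was below every WT library. The log2 fold change was -1.56 ± 0.28 (edgeR adjusted p = 0.00560).

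Sema7a, a membrane-anchored semaphorin (chromosome 9, 57940112 to 57962865), had 31.0, 20.03 and 37.0 CPM in Kir, against 81.1, 62.0 and 90.6 CPM in WT. The change on the log2 scale was -1.40 ± 0.22 (edgeR adjusted p = 0.000949). Kcnmb3, an accessory subunit of calcium-activated BK potassium channels (chromosome 3, 32471588 to 32492231), had 11.5, 7.91 and 17.7 CPM in Kir, against 34.7, 31.3 and 34.8 CPM in WT, a log2 fold change of -1.42 ± 0.22 (edgeR adjusted p = 0.000949). For both genes the groups did not overlap.

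3 more members of the list missed the threshold with all libraries and were called with the replicate block. Pcdh10, an activity-regulated protocadherin, had 36.0, 24.04 and 45.7 CPM in Kir, against 107, 76.6 and 98.8 CPM in WT (edgeR adjusted p = 0.0586 without the block and 0.00118 with it). Lrrc3b, also called without Kir replicate 3, had an edgeR adjusted p of 0.0196 with the block and Epha5, a receptor tyrosine kinase for ephrins, one of 0.0423. The other 8 members of the list were called in neither fit, among them Hist2h2be, a histone variant gene that activity is known to lower, at 327, 343 and 417 CPM in Kir and 378, 316 and 422 CPM in WT.

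5 further genes that fell belong to no list used here and were chosen by their known roles. Kcng1, a modifier subunit of voltage-gated potassium channels, had 6.31, 4.01 and 13.4 CPM in Kir, against 27.1, 18.3 and 38.4 CPM in WT (log2 fold change -1.79 ± 0.35, edgeR adjusted p = 0.00993). Scn4b, an accessory subunit of sodium channels, had 71.8, 47.7 and 101 CPM in Kir, against 188, 149.5 and 191 CPM in WT. The sodium-calcium exchanger gene Slc8a1 fell by 1.002, the dopamine receptor gene Drd2 by 0.85 and the synapsin gene Syn2 by 0.74 on the log2 scale. All 5 were also called with the block.

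Immediate early genes, which neuronal firing induces within minutes in many neurons, gave no call. Of 20 tested 0 were called, and their median log2 fold change was 0.05. At an unadjusted level the smallest p in the list was that of Egr1, a zinc-finger transcription factor, which had 24.3, 19.6 and 22.3 CPM in Kir and 9.12, 12.4 and 10.05 CPM in WT. Its groups did not overlap, and it was called higher with the replicate block (log2 fold change 1.07, edgeR adjusted p = 0.0165). Fos had 8.70, 7.81 and 8.77 CPM in Kir and 3.84, 6.09 and 5.27 CPM in WT (adjusted p = 0.508).

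Genes of mature sensory neurons were lower as well. Of 24 tested 6 fell (by 0.62 to 1.02 on the log2 scale), against 0.527% of all tested genes called lower. In the list 0 rose, and the median log2 fold change was -0.55. With the replicate block 11 fell, against 1.73% of all genes tested with the block. The count was 0 without Kir replicate 2, 0 without WT replicate 1, 2 without WT replicate 3 and 3 without Kir replicate 1. In bulk tissue, fewer mature neurons and less RNA per neuron cannot be told apart.

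Omp, the olfactory marker protein gene (chromosome 7, 98143359 to 98145502), had 449.8, 340.5 and 600.2 CPM in Kir, against 799, 772 and 790.2 CPM in WT. The change on the log2 scale was -0.76 ± 0.19 (edgeR adjusted p = 0.0454). Transduction genes fell as well. Gnal, the olfactory G protein alpha subunit, had 542.7, 370.0 and 552 CPM in Kir, against 927, 754 and 784 CPM in WT (log2 fold change -0.75 ± 0.18). Adcy3, the adenylyl cyclase that makes the odorant-evoked cyclic AMP, had 178, 104 and 189 CPM in Kir, against 281, 256 and 319 CPM in WT (-0.86 ± 0.21). Stoml3, a stomatin-like protein of the sensory cilia, fell by 0.86, Pde1c, a calcium-dependent phosphodiesterase, by 0.62 and Gfy, a Golgi protein of these neurons, by 1.02. Omp was called in 1 of the 6 fits that left out a library.

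The channel subunits of the cascade did not pass the test without the block. Cnga2, the pore-forming subunit, had 219.6, 216 and 259 CPM in Kir and 351, 302 and 321 CPM in WT (edgeR adjusted p = 0.133, and 0.0606 with the block). Cnga4, Cngb1 and the calcium-activated chloride channel gene Ano2 were called lower with the block (adjusted p = 0.0376, 0.0242 and 0.0254).

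Set against Omp in the same library, the 5 called activity-linked genes stayed lower in Kir. These genes were chosen by calls in the same libraries, with log2 fold changes of -2.04 to -1.40, against -0.76 for Omp. Lower ratios thus follow from that choice and add no support. The ratio to Omp was chosen after the values were seen and is given without a test. S100a5 per Omp was 0.158, 0.158 and 0.247 in Kir, against 0.376, 0.317 and 0.336 in WT. Kirrel2 per Omp was 0.195, 0.173 and 0.284 in Kir, against 0.485, 0.423 and 0.530 in WT. For Nphs1, Kcnmb3 and Sema7a too, every Kir ratio was below every WT ratio. The same held for Gfy, a called gene of the mature neuron list, at 1.20, 0.933 and 1.16 per Omp in Kir, against 1.33, 1.27 and 1.40 in WT. Adcy3, Gnal and Stoml3 had log2 fold changes nearer that of Omp (-0.86, -0.75 and -0.86). Their ratios to Omp overlapped between the groups. Such a ratio shows unequal change, not that a gene or a cell number stayed the same.

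Genes of immature neurons were not called. Of 22 tested, 0 rose and 0 fell, with a median log2 fold change of -0.25, and 0 were called with the block. The log2 fold change was negative in 21 and positive in 1. All Kir libraries lay below all WT libraries for 7 of the 22 and above them for 1, against 2103 and 2008 of all 19927 tested genes. Gap43, a growth-cone protein, had 260.4, 269 and 244 CPM in Kir and 386, 389 and 240.2 CPM in WT. Regulators of odorant receptor choice (24 tested, median -0.25) and genes of axon guidance and adhesion (28 tested, median -0.26) gave no call either, while with the block Plxna4, a semaphorin co-receptor gene, was called lower (edgeR adjusted p = 0.0221) and Epha3, an ephrin receptor gene, higher (0.0184). Of 16 globose basal and progenitor genes none was called without the block, and Neurog1, a proneural factor, was called lower with it (31.1, 23.7 and 30.1 CPM in Kir, against 43.4, 47.7 and 41.8 CPM in WT, edgeR adjusted p = 0.0394). Of 28 cell cycle genes 0 were called in either fit, with a median of 0.05. All Kir libraries lay below all WT libraries for 8 choice regulators, 6 guidance and adhesion genes, 7 progenitor genes and 2 cell cycle genes. They lay above all WT libraries for 0, 3, 0 and 1 in that order.

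**Figure D3:**
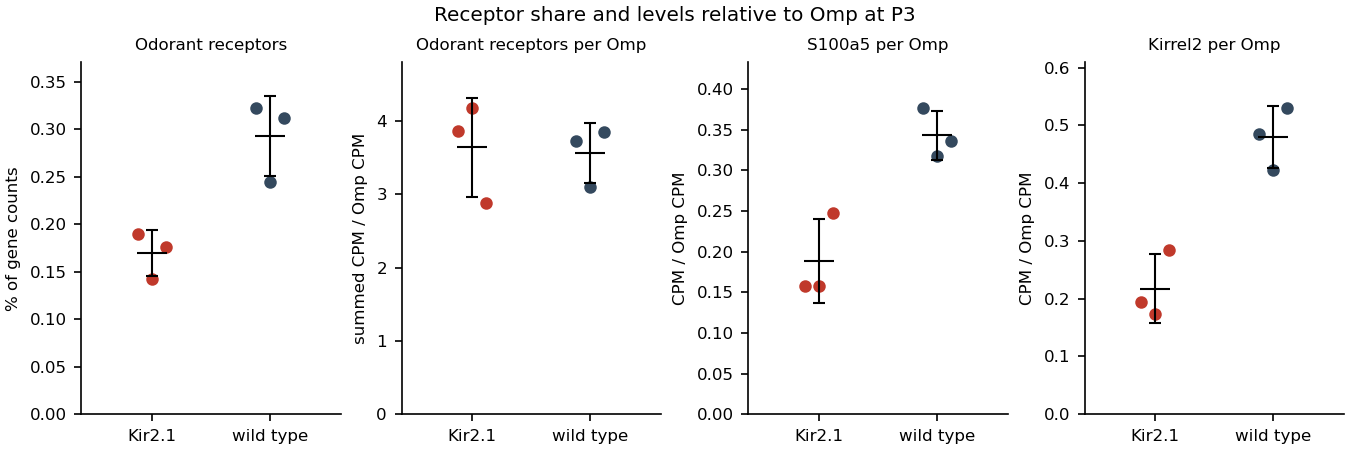
Share of gene counts held by odorant receptors, and summed odorant receptor, S100a5 and Kirrel2 levels divided by Omp, in each P3 library; Kir2.1 is red on the left, wild type dark blue on the right, bars are means ± SD (n = 3 each). The receptor share and the S100a5 and Kirrel2 ratios do not overlap between the groups, while the receptor sum per Omp does (2.88 to 4.18 in Kir, 3.097 to 3.85 in WT). S100a5 and Kirrel2 were chosen as genes called lower in these libraries.

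Odorant receptors, taken as the genes with Olfr symbols, made up 54.3% of the lower calls. OR5BS1P, a receptor by its symbol that this set leaves out, had 6.75, 2.57 and 5.62 CPM in Kir, against 14.5, 10.9 and 15.7 CPM in WT (edgeR adjusted p = 0.00173). Of 1064 receptor genes tested, 57 fell (5.36%) and 0 rose, against 0.254% of the other genes called lower. The log2 fold change was negative in 1014 receptors and positive in 50, with a median of -0.79 and quartiles of -1.11 and -0.51. All Kir libraries lay below all WT libraries for 512 receptors and above them for 3, against 2103 and 2008 of all 19927 tested genes. With the replicate block 96 of 766 fell and 0 rose, against 1.73% of all genes tested with the block called lower. Left-out libraries moved the count of lower receptors widely, to 34 and 5 without Kir replicates 1 and 2, 37 without Kir replicate 3, and 3, 71 and 14 without WT replicates 1, 2 and 3. The median without Kir replicate 3 was -0.88.

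Together the receptors took 0.190%, 0.143% and 0.176% of gene counts in Kir libraries, against 0.322%, 0.244% and 0.312% in WT libraries. The means were 0.170% ± 0.0243 in Kir and 0.293% ± 0.0425 in WT (SD, n = 3 each). The groups did not overlap, and the exact permutation test over libraries gave p = 0.1, two-sided, the smallest value that 3 against 3 can give. By deposited TPM, which corrects for length, the receptors' share averaged 0.125% ± 0.0245 in Kir and 0.218% ± 0.0396 in WT (SD, n = 3 each), with no overlap and the same exact permutation p of 0.1.

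Summed receptor CPM per summed CPM of the mature neuron list was 0.371, 0.407 and 0.317 in Kir, against 0.390, 0.363 and 0.421 in WT, and these ranges overlapped. The ratio was chosen after the values were seen and has no test.

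The largest falls among receptors with at least 1 CPM in WT were at low counts. Olfr138 had 0.178, 0.308 and 0.134 CPM in Kir, against 2.21, 1.32 and 1.90 CPM in WT (log2 fold change -3.15 ± 0.71, edgeR adjusted p = 0.0247). Olfr114 had 0.178, 0.205 and 0 CPM in Kir, against 1.25, 0.618 and 1.48 CPM in WT. Olfr818, Olfr1417, Olfr128, Olfr1383, Olfr297 and Olfr55 followed, with log2 fold changes of -2.06, -2.01, -1.997, -1.95, -1.90 and -1.88.

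Among genes with Olfr symbols the 5 smallest p-values were those of Olfr297, Olfr128, Olfr1012, Olfr293 and Olfr55. Olfr297 (chromosome 7, 86519968 to 86528497) had 1.155, 1.03 and 0.937 CPM in Kir, against 3.45, 2.73 and 5.34 CPM in WT (edgeR adjusted p = 0.00219). Olfr128 (chromosome 17, 37920548 to 37926801) had 0.444, 0.822 and 0.803 CPM in Kir, against 3.55, 3.26 and 1.62 CPM in WT (edgeR adjusted p = 0.00303). Of the receptors with positive log2 fold changes, the smallest p was that of Olfr294, which was not called (adjusted p = 0.31).

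More receptors were called among those with higher counts. When the receptors were ordered by level in 4 groups of 266, 4, 5, 19 and 29 fell, while the median log2 fold change stayed between -0.82 and -0.76. The receptors Olfr543 to Olfr692, a range on chromosome 7 that holds most fish-like (class I) receptors, had 3 falls in 110 and a median of -0.60. The others had 54 falls in 954 and a median of -0.81. Without Kir replicate 3 the medians lay closer together, at -0.81 for this range and -0.89 for the others, with 4 and 33 falls. Receptors of chromosome 11 had 12 falls in 86, those of chromosome 7 11 in 225 and those of chromosome 2 9 in 265. Many receptors have near-identical copies, and reads that map to several places were not counted to genes.

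Trace amine-associated receptors, the second family of olfactory receptors, had 1 fall among 11 tested and a median of -0.76. Of all tested genes 0.527% were called lower. Taar9 (chromosome 10, 24108488 to 24109534) had 0.355, 0.103 and 0.201 CPM in Kir, against 2.02, 1.06 and 0.913 CPM in WT (log2 fold change -2.52 ± 0.55, edgeR adjusted p = 0.0210). Taar7a was called with the block (adjusted p = 0.0379). Gucy1b2, a soluble guanylate cyclase subunit of an atypical class of sensory neurons, had 5.33, 1.85 and 4.08 CPM in Kir and 12.1, 11.4 and 7.80 CPM in WT, and it was called with the block (adjusted p = 0.0305).

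Interferon-stimulated genes were higher in Kir. Interferons bind surface receptors that signal to promoters with interferon-response elements, and the products of the induced genes restrict viruses. Of 30 tested interferon-stimulated genes 8 rose (26.7%), against 0.176% of all tested genes called higher. In the list 0 fell, and the median log2 fold change was 2.08. For 28 of the 30 all Kir libraries lay above all WT libraries, against 2008 of all 19927 tested genes. With the replicate block 27 of the 30 rose, against 1.62% of all genes tested with the block. The count was 15 without Kir replicate 3, 1 without Kir replicate 1, 0 without Kir replicate 2, and 0, 1 and 0 without WT replicates 1, 2 and 3. Ifit2 and Cmpk2 had libraries of both groups overlapping, and Oas3 was the third gene not called with the block.

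Summed over the list, the level was 641, 839.5 and 330.3 CPM in Kir, against 194, 204 and 170.2 CPM in WT. Kir replicate 3 was lowest of the Kir libraries in this sum and for Kcnj2. Kir replicate 2 was highest in this sum, and Kir replicate 1 was highest for Kcnj2. The summed level of macrophage genes, of which 1 in 17 was called, overlapped between the groups. It was 346, 528 and 455 CPM in Kir, against 232, 326 and 385 CPM in WT, and the part of these genes in the interferon result was not tested. In the macrophage list all 17 log2 fold changes were positive. For 12 of its genes all Kir libraries lay above all WT libraries, against 2008 of all 19927 tested genes.

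Xaf1 (chromosome 11, 72301629 to 72313733, plus strand), an interferon-induced pro-apoptotic factor, had 10.1, 11.9 and 5.42 CPM in Kir, against 1.34, 1.41 and 1.26 CPM in WT. Every Kir library was higher than every WT library. The log2 fold change was 2.76 ± 0.52 (edgeR adjusted p = 0.00944). Isg15 (chromosome 4, 156199424 to 156200818), a ubiquitin-like protein, had 28.9, 36.6 and 9.57 CPM in Kir, against 3.17, 3.35 and 2.46 CPM in WT (3.06 ± 0.74, edgeR adjusted p = 0.0381). Oasl2, an oligoadenylate synthetase-like protein, had 116, 129 and 45.3 CPM in Kir, against 24.3, 20.3 and 14.4 CPM in WT (2.30 ± 0.56). Kir replicate 3 was the lowest Kir library for all 30 genes of the list. Xaf1 was no longer called without Kir replicate 2, WT replicate 1 or WT replicate 3.

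The others called were Gbp3 and Irgm1, interferon-induced GTPases, Mx2, a dynamin-like antiviral GTPase, Oas1g, an oligoadenylate synthetase, and Rtp4, a receptor transporter family member induced by interferon. Their log2 fold changes were 2.69 ± 0.60, 1.69 ± 0.40, 2.56 ± 0.64, 2.501 ± 0.59 and 2.19 ± 0.49. Larger estimates belonged to genes that missed the threshold with all libraries. Mx1 had 12.6, 12.7 and 2.95 CPM in Kir and 0.384, 0.794 and 0.281 CPM in WT (edgeR adjusted p = 0.0543, called without Kir replicate 3, and 0.000778 with the block). Ifit3 had 10.7, 25.6 and 2.34 CPM in Kir and 0.480, 0.618 and 0.492 CPM in WT (edgeR adjusted p = 0.0718, and 0.00195 with the block). Ifit3 and Ifit3b are near-identical copies, so their separate counts are uncertain. Ifit3b and Oas2 had block values of 0.00388 and 0.00388. Tgtp2, an interferon-induced GTPase, was called without Kir replicate 3 and was not tested with the block.

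**Figure D4:**
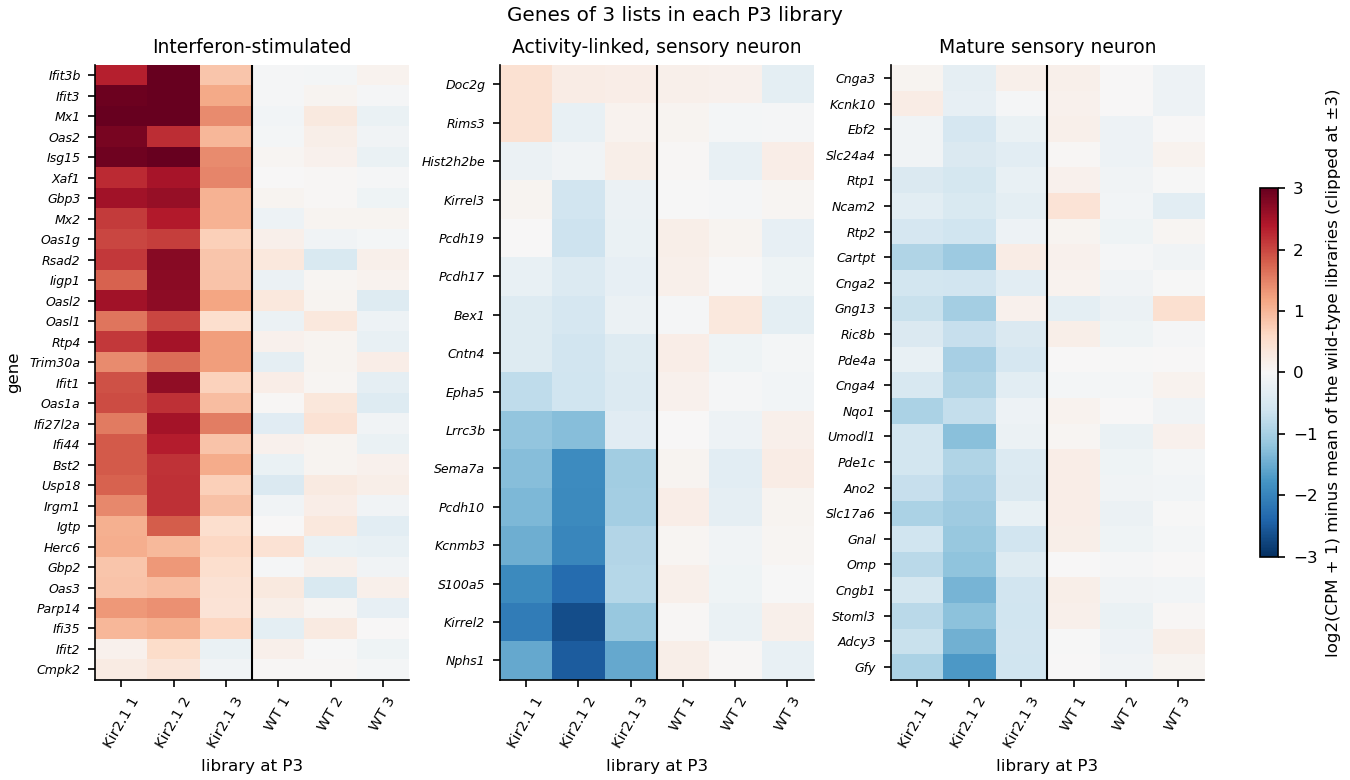
Genes of 3 lists in the 6 P3 libraries, as log2(CPM + 1) minus the mean of the WT libraries (red higher, blue lower, clipped at ±3), with the Kir2.1 libraries left of the line. 28 of 30 interferon-stimulated genes are higher in all Kir libraries than in all WT libraries, against 2008 of all 19927 tested genes. Kir replicate 3 is the lowest Kir library in all 30 rows of that list.

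Sensors of foreign nucleic acid and interferon signalling factors had 2 rises among 17 tested, a median log2 fold change of 0.73 and 10 rises with the block. Of all tested genes 0.176% were called higher, and 1.62% of those tested with the block. Zbp1, a sensor of Z-form nucleic acid, had 4.80, 4.01 and 2.34 CPM in Kir, against 0.384, 0.353 and 0.492 CPM in WT (3.13 ± 0.76, edgeR adjusted p = 0.0388). Dhx58, a helicase that regulates RIG-I-like sensors, had 11.5, 14.9 and 4.42 CPM in Kir, against 1.92, 1.85 and 1.48 CPM in WT. The factors Stat2, Irf7 and Irf9 missed the threshold with all libraries and were called with the block, at edgeR adjusted p = 0.0394, 0.00210 and 0.00289.

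Of 13 listed interferon genes and interferon receptors, 5 receptors had enough counts to be tested, and 0 were called in either fit. Ifnar1, a chain of the type I interferon receptor, averaged 74.6 ± 5.64 CPM in Kir and 75.2 ± 1.74 CPM in WT (SD, n = 3 each). At this depth, interferon ligands under the filter on low counts were not measurable.

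Genes of class I antigen presentation gave 0 calls among 19, with a median of 0.75. For 12 of the 19 all Kir libraries lay above all WT libraries, against 2008 of all 19927 tested genes. With the block 9 of 18 rose, against 1.62% of all genes tested with the block. These included B2m, the shared light chain, which had 141, 203 and 136 CPM in Kir, against 74.3, 79.0 and 79.4 CPM in WT (log2 fold change with the block 1.02, edgeR adjusted p = 0.00512), and Nlrc5, the class I transactivator, with 8.26, 6.88 and 2.08 CPM in Kir, against 1.152, 1.147 and 0.703 CPM in WT (edgeR adjusted p with the block = 0.00530). Class I genes share sequence, so the counts of single H2 genes are uncertain.

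The promoters of 3 of the genes that rose are shown because each holds the interferon-response motif more than once. The motif searched was GAAA, any 2 bases and GAAA on either strand (TTTC, any 2 bases and TTTC on the other), and overlapping matches were each counted. Sequences are from RefSeq on GRCm38.p6, from 250 bases before to 50 after the gene start, 5′ to 3′ on the strand of the gene, with matches in capitals. They lie at chr4:156200769-156201068 (Isg15, minus strand), chr5:120887564-120887863 (Oas1g, minus strand) and chr3:142559794-142560093 (Gbp3, plus strand).
Isg15: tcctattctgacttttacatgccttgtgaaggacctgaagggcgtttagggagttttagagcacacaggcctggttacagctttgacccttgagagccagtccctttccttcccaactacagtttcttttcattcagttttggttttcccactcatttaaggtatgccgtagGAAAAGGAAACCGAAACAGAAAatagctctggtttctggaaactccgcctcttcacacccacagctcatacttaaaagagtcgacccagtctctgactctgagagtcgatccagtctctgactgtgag
Oas1g: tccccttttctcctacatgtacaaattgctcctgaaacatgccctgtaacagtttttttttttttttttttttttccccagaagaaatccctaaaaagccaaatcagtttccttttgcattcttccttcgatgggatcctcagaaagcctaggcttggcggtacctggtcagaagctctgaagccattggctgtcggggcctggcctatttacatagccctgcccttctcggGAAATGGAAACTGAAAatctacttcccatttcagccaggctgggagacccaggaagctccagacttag
Gbp3: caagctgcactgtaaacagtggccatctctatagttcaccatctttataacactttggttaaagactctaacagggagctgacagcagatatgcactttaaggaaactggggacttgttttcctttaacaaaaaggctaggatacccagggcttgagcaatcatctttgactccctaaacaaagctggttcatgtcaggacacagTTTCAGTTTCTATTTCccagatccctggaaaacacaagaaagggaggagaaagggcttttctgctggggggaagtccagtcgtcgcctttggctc

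Isg15 held 3 overlapping matches, the first starting 78 bases before the gene start. Oas1g and Gbp3 held 2 each, the first starting 18 and 45 bases before it. Gbp3 has a second RefSeq start, and the window around that start held 0 matches. Of the genes called higher, 22 had a RefSeq promoter, and 8 of them (36.4%) held the motif: Ctss, Gbp3, I830077J02Rik, Irgm1, Isg15, Lgals9, Oas1g and Slfn8. Among all genes with a promoter sequence 3.99% held it. In the interferon list it was found in 14 of 22 (63.6%), and in lower-called receptors in 2 of 47 (4.26%). Xaf1 and Oasl2 had no match in this window. A second motif, TCCC, any 2 bases and GGGA, which Ebf factors of sensory neurons are known to bind, was found in 0 of 47 lower-called receptors and in 3 of 34 other lower-called genes (Ahcyl2, Cmip and Gfy; Ahcyl2 was not called with the block, at an adjusted p of 0.0903), against 1.06% of all genes. A match is a description of the letters only.

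Genes of myeloid cells were among the higher calls. Ctss, a lysosomal protease of antigen-presenting cells that also responds to interferon, had 19.9, 30.0 and 23.6 CPM in Kir, against 9.98, 12.1 and 10.1 CPM in WT (log2 fold change 1.19 ± 0.19, edgeR adjusted p = 0.00103). C1qb, a complement subunit made by macrophages, had 14.7, 23.2 and 19.5 CPM in Kir, against 7.49, 13.0 and 9.63 CPM in WT (0.93 ± 0.23, edgeR adjusted p = 0.0401). Of all tested genes 0.176% were called higher, and 1.62% of those tested with the block. C1qb was 1 of 17 macrophage genes called, and the list's median log2 fold change was 0.72. With the block 5 were called, the others being Adgre1, Csf1r, Mrc1 and C1qc (edgeR adjusted p = 0.0262, 0.0490, 0.0270 and 0.0414), and 0 were called without Kir replicate 3, Kir replicate 2, WT replicate 1 or WT replicate 3. Mpeg1, a macrophage pore-forming protein, rose by 1.23 ± 0.27 and C3ar1, a complement receptor, by 1.42 ± 0.31.

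Lists of other cells the dissection could hold gave few calls. Endothelial genes (14 tested, median 0.51), fibroblast genes (15 tested, median 0.47), Bowman's gland genes (20 tested, median 0.52), sustentacular genes (17 tested, median -0.15), horizontal basal cell genes (13 tested, median 0.23) and respiratory ciliated cell genes (14 tested, median 0.20) gave 0 calls each. All Kir libraries lay above all WT libraries for 9 endothelial, 6 fibroblast, 1 gland, 1 sustentacular, 3 horizontal basal and 4 ciliated cell genes. Of all 19927 tested genes this held for 2008. They lay below all WT libraries for 0, 0, 0, 2, 1 and 0 genes of these lists in that order. With the block 2 endothelial, 3 fibroblast, 3 ciliated cell, 1 gland and 1 horizontal basal cell genes were called higher, against 1.62% of all genes tested with the block. Skeletal muscle genes had a median of -1.89 over 9 tested and 0 calls. Their summed level was 8.08, 9.97 and 9.24 CPM in Kir, against 109, 9.26 and 8.36 CPM in WT, so that difference lay in WT replicate 1. Lists for apoptosis (20 tested), the unfolded protein response (16), heat shock (8) and xenobiotic metabolism (22) gave 0 calls in either fit.

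3 of the largest rises were of genes outside these lists. Dnase1l3, a secreted DNA-degrading enzyme of phagocytes, had 1, 43 and 100 counts in Kir libraries 1 to 3, against 0, 2 and 1 in WT libraries. Kir replicate 1 thus overlapped WT, and the ratio of summed counts was 48.1 (95% counting interval 16.1 to 236). This interval covers the counting of pooled reads only. It leaves out the spread between libraries and so does not measure how sure the difference between groups is. Gm13935, a processed pseudogene on chromosome 2, had 6.84, 5.14 and 0.469 CPM in Kir, against 0.576, 0.441 and 0.281 CPM in WT. Its level in Kir replicate 3 lay within the WT range, whereas the fitted log2 change was 3.78 without that library and 3.25 ± 0.66 with it (edgeR adjusted p = 0.0116). Gm13328, a further processed pseudogene on chromosome 2, showed the same order of libraries, with 2.58, 1.95 and 0.134 CPM in Kir, against 0.0960, 0.176 and 0.211 CPM in WT, and was called without Kir replicate 3 but not with all libraries. Gm8276, a processed pseudogene on chromosome 3, had 5.15, 5.86 and 3.15 CPM in Kir, against 0.288, 0.353 and 0.141 CPM in WT. Reads of pseudogenes may be shared with their parent genes.

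2 further falls by size were of genes outside the receptor and neuron lists. 2210011C24Rik (chromosome 8, 84010222 to 84012171, minus strand), a gene of no stated function in the sources used here, had 0.888, 0.616 and 0.803 CPM in Kir, against 4.03, 3.44 and 4.08 CPM in WT (log2 fold change -2.30 ± 0.36, edgeR adjusted p = 0.000949). Phospho1, a phosphatase of bone mineralization, averaged 0.528 ± 0.269 CPM in Kir and 2.101 ± 0.775 CPM in WT (SD, n = 3 each) (-1.92 ± 0.46, edgeR adjusted p = 0.0388). Cartilage and bone genes as a list had a median of -0.56 and 0 calls among 20.

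The genes called at P3 were then followed in the libraries of the other ages, none of which entered the P3 groups. Of the 105 lower genes, 100 had a negative log2 fold change at P0, 104 at P5, 102 at P7, 97 at P10, 102 at P14 and 82 at P21. The same direction was called for 19, 12, 2, 24, 20 and 3 of them in that order of age. The share of all tested genes called at those ages, in either direction, was 1.09%, 0.105%, 0.0903%, 3.13%, 1.17% and 0.743%. The median log2 fold change of all tested genes at those ages lay between -0.042 and 0.0047. Of the 105, 75 were negative at all 7 ages, which include P3, where they were chosen.

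Of the 35 higher genes, 24 were positive at P0 and 35, 30, 29, 31 and 31 at P5, P7, P10, P14 and P21. Of the 35, 2 were called higher at P0, 2 at P5, 4 at P7, 18 at P10, 18 at P14 and 17 at P21. Over all tested genes, 218, 21, 18, 623, 234 and 148 were called in either direction at those ages. The median log2 fold change of the 35 was 0.10 at P0, 2.06 at P3, 0.70 at P5, 0.92 at P7, 1.03 at P10, 1.51 at P14 and 1.34 at P21. The P3 value is the one that chose these genes. Xaf1 had a log2 fold change of 2.76 ± 0.52 at P3 and -0.12 ± 0.40 at P0, but the test of that difference was not passed (edgeR adjusted p = 0.178). Nphs1 was called lower at P0, P5, P10, P14 and P21 as well, and at P7 the difference was -0.75 ± 0.27 on the log2 scale (edgeR adjusted p = 0.581). Kcnj2 was called higher at all 7 ages, and its difference at P3 minus the mean of the other ages was 0.02 ± 0.52.

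**Figure D5:**
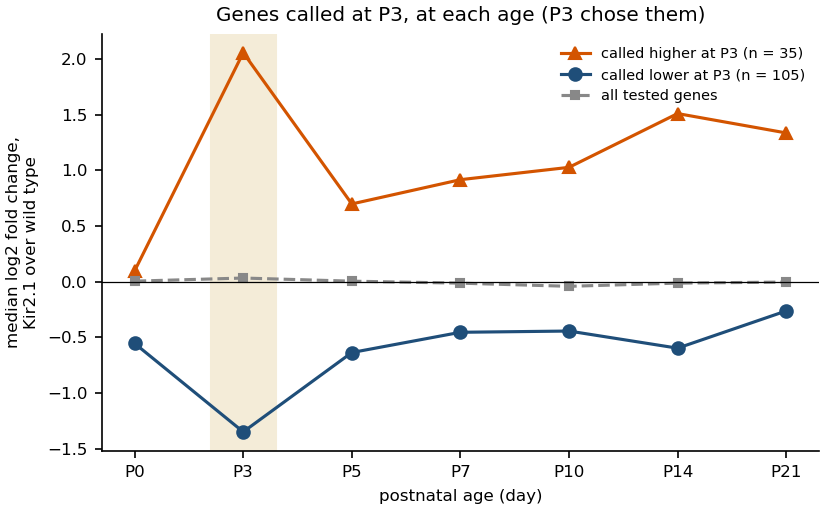
Median log2 fold change of Kir2.1 over wild type at each age for the 35 genes called higher and the 105 called lower at P3, and for all tested genes; P3, where the genes were chosen, is shaded. The higher genes have a median of 0.10 at P0 and 0.70 to 1.51 from P5 on, and the lower genes stay below 0 at every age.

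Tested directly, the P3 difference departed from the mean difference of the 6 other ages in 1 of 19927 genes at an adjusted p below 0.05, and in 1414 at an unadjusted p below 0.05. That gene was 2210011C24Rik, with a log2 fold change of -2.30 at P3 and of -0.33 to 0.09 at the other ages (difference -2.19 ± 0.39, edgeR adjusted p = 0.0373). The call was lost without each Kir library and without WT replicates 1 and 3. The next genes by p-value were Olfr128 and Olfr297 (adjusted p = 0.0598 for both), then Olfr293 (0.242), Olfr1012 and Gm8276 (0.293 for both). Against P0 alone 1 gene was called, Gm8276, with a difference of 6.73 ± 1.20 (edgeR adjusted p = 0.0465), with 4.17 ± 0.92 at P3 and -2.56 ± 0.77 at P0. Against P5 alone edgeR called 0 genes, with 414 at an unadjusted p below 0.05.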

How the data were processed

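Per the labels' protocols, polyadenylated RNA from dissected olfactory epithelium was made into libraries with an Illumina mRNA kit. Reads were demultiplexed with bcl2fastq 2.18, aligned with STAR 2.6.1c to mm10 and quantified with RSEM, per the submitters' processing notes. The authors deposited whole-number read counts per gene and TPM for each library. No source used here states the strand setting. The 4 lines that name no gene were left out of library sizes; reads mapped to several places, which they include, made up 8.39% to 16.2% of reads at P3 and were not counted to genes.

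Counts were tested with edgeR 4.0.16 in R 4.3.3 (quasi-likelihood test, TMM, filterByExpr, 1 mean per group of 14 plus a term for the title prefix, all 47 libraries in 1 fit, Benjamini-Hochberg adjustment over 19927 genes). Genes with an adjusted p below 0.05 count as called. CPM are of the normalized library size, and log2 fold changes are Kir over WT with standard errors. TPM was tested with limma 3.58.1 as log2(TPM + 1) or log2(TPM + 0.1), and counts also with DESeq2 1.42.0, as alternatives. Other alternatives were 2 further scalings, other filters, no prefix term, each library left out, the P3 libraries alone, and a replicate block.

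A single library carries a P0 title and a P3 stage label. It was placed in WT P0, and its other placing is an alternative. Replicates within a group differed by 7.90 to 25.4 times the sampling variance, so none was counted as a copy. Deviations from the group means correlated at 0.230, 0.253 and 0.264 between same-numbered Kir and WT libraries at P3, and at -0.149 to -0.0807 between others. The pairing thus comes from the data, since the labels do not say what the number marks.

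Gene positions are from GENCODE M21 on GRCm38, with 54495 of 54532 gene IDs matched. RefSeq promoters were found for 69.8% of tested genes. The genes and lists were chosen with earlier results of these data known. Named genes were Kcnj2, Nphs1, Xaf1, the 12 largest rises and 12 largest falls among called genes of at least 1 CPM in the higher group, the same without Kir replicate 3, up to 4 genes of smallest p per list, the 6 of smallest p against other ages and the 5 receptors of smallest p in each direction. Other genes named were chosen after their values were seen. The steps were tested on simulated data.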

Additional observations from a re-analysis of the deposited data

Results flagged for a closer look

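A pair of genes had a Kir versus WT difference at P3 that departed from the difference at other ages by a direct test. For 2210011C24Rik the log2 difference at P3 minus the mean of the 6 other ages was -2.19 ± 0.39 (edgeR adjusted p = 0.0373). The gene had 0.888, 0.616 and 0.803 CPM in the Kir libraries at P3, against 4.03, 3.44 and 4.08 CPM in the WT libraries. For Gm8276, a processed pseudogene, the log2 difference at P3 minus that at P0 was 6.73 ± 1.20 (edgeR adjusted p = 0.0465). It was positive at P3 (4.17 ± 0.92, called) and negative at P0 (-2.56 ± 0.77, not called).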

How the results depend on the processing

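Against 140 calls in the main analysis, separate fits called 42 genes with the WT library of ambiguous age placed in P3, 57 in the P3 libraries alone (34 higher, 23 lower), 573 with the replicate block and 345 by DESeq2; leaving out a library gave 11 to 171. Interferon-stimulated genes called higher, 8 in the main analysis, numbered 18 with no filter, 2 with no prefix term, 2 with the ambiguous library in P3, 13 with the CPM filter, 27 with the replicate block, 3 and 5 by limma on log2(TPM + 1) and log2(TPM + 0.1), 20 by DESeq2, and 0 to 15 without a library. Activity-linked genes called lower, 5, numbered 8 with the block and 3 to 6 without a library. Mature neuron genes called lower, 6, numbered 0 with the ambiguous library in P3, 0 in the P3 libraries alone, 11 with the block, 11 by DESeq2 and 0 to 9 without a library. Receptors called lower, 57, numbered 14 with the ambiguous library in P3, 11 in the P3 libraries alone, 96 with the block, 24 and 37 by limma with the larger and the smaller pseudocount, 110 by DESeq2 and 3 to 71 without a library. The 1 call of P3 against the other ages became 0 with no filter, 0 with no prefix term, 0 with the ambiguous library in P3, 14 by DESeq2 and 0 to 3 without a library. The cause of these changes was not tested. Kcnj2 was called under every alternative run, at a log2 fold change of 3.03 to 4.09 without a library. The receptor share differed by -0.148 to -0.109 percentage points without a library. Among genes named, signs reversed only for uncalled ones. Cmpk2 was at -0.018 and -0.019 by limma on TPM. Hist2h2be was at 0.17 with the ambiguous library in P3, and ran from -0.18 to 0.033 without a library. Ifit2 ran from -0.035 to 0.34 and Ifnar1 from -0.094 to 0.017 without a library. Beyond the changes given beside the results, the block changed no call of a named gene that it tested. Most receptors had low counts, and the part of depth in their calls was not tested.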
